A study of Rattus norvegicus with 25 samples.

Results

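MiR-378a is cut from a hairpin inside Ppargc1b, which encodes PGC-1β, a coactivator of metabolic genes. It was followed here in small RNA from rat muscle mitochondria through 4 of the 764 rows of the count table. Chosen by name were rno-miR-378a-3p and rno-miR-378a-5p, the 2 arms of the hairpin, and rno-miR-378b, a related miRNA annotated elsewhere in the genome. The remaining row, rno-miR-3557-5p, was taken because its counts were known to follow those of miR-378a-3p. That likeness is therefore not an independent finding. The donors were male Wistar-Kyoto rats, and the mitochondria were from the red gastrocnemius, an oxidative part of the calf. 13 endurance-trained rats had run on a treadmill for 4 weeks, on 5 days of each week, from an age of 5 weeks, and 12 sedentary rats of that age had stood on an idle treadmill for the same time. Mitochondria had been isolated with a kit made for mouse tissue and treated with RNase A, which digests RNA outside the organelle, before their RNA was extracted. No library of whole muscle or of mitochondria without RNase A was analysed here, so the place of a miRNA inside or outside the organelle cannot be read from its count.

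A miRNA hairpin yields a 5p and a 3p strand, of which usually only one is loaded into an Argonaute protein in quantity. The loaded strand finds its target messages mainly through its seed, bases 2 to 8. PGC-1β raises mitochondrial and oxidative gene expression together with nuclear receptors such as the estrogen-related receptors. In mice, both arms of miR-378 have been described as counterweights to that programme, with Crat, an enzyme of fatty acid metabolism, and Med13, a subunit of the Mediator complex, among the targets, and miR-378 has been described as promoting differentiation of cultured myoblasts.

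The sequences are shown because they decide which rows can hold the same reads. RefSeq (rat assembly GRCr8) gave mature sequences for 3 of the 4 rows, and for miR-3557-3p, the partner arm of miR-3557-5p, which was added after its values were seen. Seeds are in capitals, 5′ to 3′.
miR-378a-3p: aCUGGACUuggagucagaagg
miR-3557-5p: gCCUUCUGacuccaaguccagu
miR-378a-5p: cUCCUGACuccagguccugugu
miR-3557-3p: aCACAGGAccuggagucaggag
MiR-378a-3p lies at chr18:57128925-57128945 and miR-378a-5p at chr18:57128962-57128983, both on the minus strand. MiR-3557-5p lies at chr18:57128924-57128945 and miR-3557-3p at chr18:57128962-57128983, both on the plus strand. The 2 hairpins therefore occupy the same stretch of DNA on opposite strands. All 21 bases of miR-378a-3p are contained in the reverse complement of the 22 bases of miR-3557-5p, which has 1 base more, and all 22 bases of miR-378a-5p are the reverse complement of miR-3557-3p. The seeds of the 4 strands all differ.

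The hairpin of miR-3557, on the plus strand at chr18:57128900-57129012, is shown with its 2 mature strands in capitals, since miR-378a is read from its other strand.
Mir3557 hairpin: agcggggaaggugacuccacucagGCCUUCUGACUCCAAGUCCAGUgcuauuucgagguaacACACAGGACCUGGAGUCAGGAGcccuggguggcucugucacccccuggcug
Mir378 falls within Ppargc1b and on the strand of that gene, with miR-378a-3p 2521 bases downstream of the annotated gene start. MiR-378b is annotated on a different chromosome. Of the 693 rat mature miRNAs in the sequence table, 1, miR-378a-3p itself, carried its seed CUGGACU. The table is not complete, so this does not show that no other rat miRNA has this seed.

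Depth differed widely between libraries. Total counts ranged from 26793 to 202388 in trained rats and from 12181 to 186006 in sedentary rats. Reads were counted without molecular identifiers, and the Wilson intervals of shares below cover counting error only. The intervals of fold changes include the spread between libraries. Muscle markers were present, with miR-1-3p and miR-206-3p in all 25 libraries, while miR-133a-3p had a count in 22 and miR-499-5p in 5, and the slow-muscle marker miR-208b-3p was at 0. The summed share of the 6 muscle markers ranged from 11.0% to 27.1% in trained and from 9.15% to 32.5% in sedentary rats. The 2 red cell markers listed, miR-451-5p and miR-144-3p, had 0 counts, and no other miRNA was examined as a red cell marker. Of 4 leukocyte markers, miR-142-3p and miR-223-3p had 0 counts, miR-142-5p had 4 in 1 library and miR-150-5p 346 in 11, summing to at most 0.114% of a trained and 0.238% of a sedentary library. The smooth muscle marker miR-143-3p had 55782 counts in 25 libraries and miR-145-5p 212 in 9. Together they reached 3.41% of a trained and 5.49% of a sedentary library. Of 2 endothelial markers, miR-126a-3p had 13019 counts in 25 libraries and miR-126a-5p had 0. Their share reached 0.855% of a trained and 1.80% of a sedentary library. The liver marker miR-122-5p had 1175 counts in 18 libraries. The part of these miRNAs in the results was not tested. 1 of 4 brown adipocyte markers had a count, in 2 libraries. Any filter applied before the table was made was not given in the sources used here.

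MiR-378a-3p was one of the most abundant entries. It took 6.78% ± 2.42 of all counts (SD, n = 25), with 136920 counts over all libraries. In trained rats the share was 1.50% at its lowest, 6.84% at the median and 9.85% at its highest (n = 13). In sedentary rats these values were 3.06%, 6.74% and 10.9% (n = 12). The ranges overlapped nearly throughout, and the lowest library of all was trained 27, at 1.50% (95% Wilson interval 1.45% to 1.56%), also the deepest one. Every library of both groups thus held miR-378a-3p in quantity, with the lowest count, 373, in sedentary library 19, the shallowest.

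By mean share, miR-378a-3p was sixth of 764 rows. The rows directly above it were miR-3557-5p at 6.81% ± 2.43, miR-206-3p at 7.56% ± 3.69 and miR-1b at 8.28% ± 2.40 (SD, n = 25). MiR-206-3p and miR-1b, both of muscle, were above miR-378a-3p in 13 and 15 of the 25 libraries, so their order was within the spread. Directly below were miR-378b at 6.59% ± 2.40, let-7i-5p at 3.92% ± 1.13 and miR-143-3p at 2.72% ± 1.28. The let-7 member exceeded miR-378a-3p in 4 libraries and miR-143-3p, a smooth muscle miRNA, in 3. The variation of miR-378a-3p between libraries, a coefficient of 35.6%, was the third lowest among the 40 rows with a count in every library, whose median was 56.1%. Of other abundant rows, let-7i-5p was at 28.8%, miR-1b at 29.0%, miR-1-3p at 38.9% and miR-206-3p at 48.8%.

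**Figure D1:**
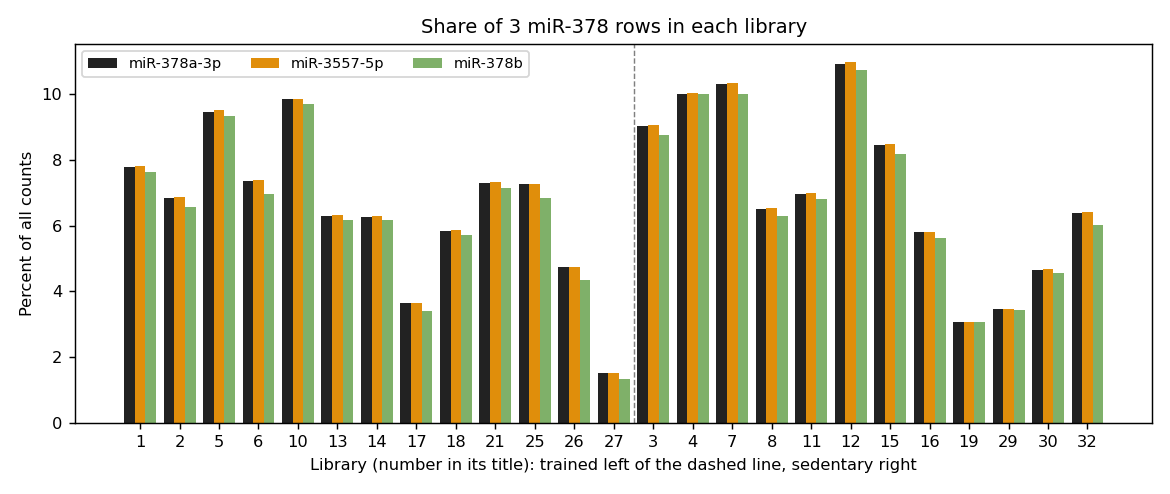
Percent of all counts (vertical axis) taken by miR-378a-3p, miR-3557-5p and miR-378b in each of the 25 libraries (horizontal axis, by the number in the title), trained left and sedentary right of the dashed line. The 3 bars of a library have nearly the same height, and heights range from 1.50% to 10.9% for miR-378a-3p.

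MiR-3557-5p, taken for this likeness, had almost exactly the counts of miR-378a-3p. Over all libraries it had 137458 counts. As a percentage of the miR-378a-3p count it stood at 100.2% to 100.7%, median 100.4%, in trained rats and at 100% to 100.6%, median 100.4%, in sedentary rats. It exceeded miR-378a-3p in 24 libraries, by 5 to 37 reads in trained rats and by up to 62 in sedentary rats, and was equal to it in sedentary library 19. The 2 rows are annotated on opposite strands and share 21 bases. Whether the count used strand was not given in the sources used here. Their reads cannot be told apart from this table, and the miR-3557-5p value is reported as uncertain, as no count of its own can be assigned to it. The same limit holds for miR-378a-3p, whose share and rank use the full count of its row.

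MiR-378b also followed miR-378a-3p, less closely. Its 132331 counts were 96.6% of the miR-378a-3p total. Per library the percentage was 89.4% at its lowest, 97.8% at the median and 98.9% at its highest in trained rats. The values in sedentary rats were 94.2%, 97.4% and 100%. Libraries below 95% were 5 of 13 trained and 1 of 12 sedentary, a boundary chosen after the values were seen. The log2 ratio of miR-378b to miR-378a-3p averaged -0.060 ± 0.046 in trained and -0.034 ± 0.024 in sedentary rats (SD, n = 13 and 12). That difference, -0.027, missed the threshold (permutation test, two-sided, 100000 resamples, p = 0.0896, adjusted p = 0.627 over 7 measures of library composition). For miR-3557-5p the log2 ratio was 0.0060 ± 0.0023 in trained and 0.0053 ± 0.0026 in sedentary rats (SD, n = 13 and 12; permutation p = 0.519, adjusted p = 0.852). MiR-378b too is therefore uncertain as a miRNA of its own.

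**Figure D2:**
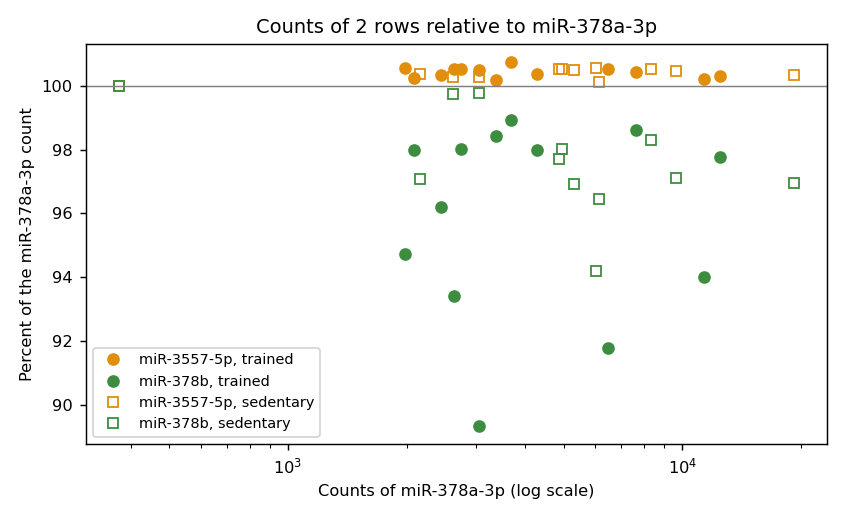
Counts of miR-3557-5p and miR-378b as a percentage of the miR-378a-3p count of the same library (vertical axis) against that count (horizontal axis, log scale), filled for trained and open for sedentary libraries. MiR-3557-5p stays between 100% and 100.7%, while miR-378b runs from 89.4% to 100%.

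Summed over the 4 rows, the share was 19.2% ± 6.75 in trained and 21.2% ± 7.89 in sedentary rats (SD, n = 13 and 12). When 16 rows that repeat another row were left out, miR-378a-3p held 8.30% ± 2.87 of the remaining counts in trained rats (SD). The value in sedentary rats was 8.85% ± 3.25. MiR-378b did not meet the rule for such a repeat. With miR-378b left out as well, miR-378a-3p held 9.12% ± 3.35 in trained and 9.81% ± 3.91 in sedentary rats (SD). It was then the most abundant miRNA in 2 trained and 4 sedentary libraries, and its rank ran from 1 to 12 in trained and from 1 to 6 in sedentary rats. Leaving miR-378b out was chosen after the data were seen.

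Agreement in summed counts was also found for the other arm and for other hairpins. MiR-3557-3p equalled miR-378a-5p in all 25 libraries, with 77 counts in each row. Reads of these arms cannot be told apart either, and the 5p shares below use the full count of the row. In the RefSeq table, 23 pairs of rows lay on opposite strands, shared at least 1 base and had 10 or more counts in one row. In 19 of them, with 19 to 22 shared bases, the smaller total was between 86.3% and 100% of the larger, and 18 were at 90% or more. Within a library, let-7d-5p and miR-3596b differed by up to 42.8%. Some of the 19 pairs, such as miR-3553 with miR-183-5p and miR-218b with miR-218a-5p, reached 10 counts together in only 1 or 2 libraries. The other 4 pairs shared 1 to 18 bases and had one row at 0. Their counted rows were low, with 19 counts of miR-3120, 46 of miR-29a-3p, 45 of miR-9a-5p and 272 of miR-337-5p. Apart from the miR-337-5p pair, each reached 10 counts in only 1 library. The boundary of 19 bases was chosen after the values were seen. MiR-1-3p and miR-3571, the most abundant such pair, differed by at most 0.180% in any library, against 0.729% for miR-378a-3p and miR-3557-5p.

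**Figure D3:**
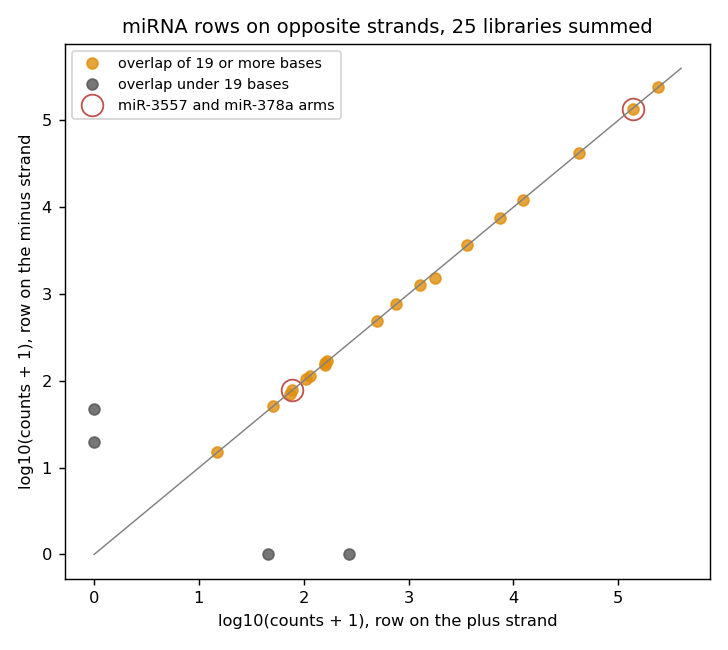
Summed counts of 23 pairs of miRNA rows annotated on opposite strands, as log10(counts + 1) of the plus-strand row (horizontal axis) and of the minus-strand row (vertical axis), with the line of equal counts. The 19 pairs sharing 19 or more bases, the 2 miR-378a pairs circled among them, lie near the line, and the 4 pairs sharing fewer have one row at 0.

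The 5p arm, whose mature strand has its own seed and its own targets, was almost absent. MiR-378a-5p had 30 counts in trained library 14 and 47 in sedentary library 30, and 0 in the other 23 libraries. As a share of both arms this was 0.390% (Wilson 95% interval 0.274% to 0.557%) in trained library 14. The corresponding share in sedentary library 30 was 0.941% (0.708% to 1.25%). In the 23 libraries at 0, 3 counts would be 0.0156% to 0.804% of both arms, median 0.0816%, and in 22 of them this limit was below 0.390%. The limit takes reads as independent, which was not tested. Without molecular identifiers, and with any earlier filter not known, a 0 here does not bound the 5p share. The totals of the 2 libraries with a count were 122365 and 106661, above the median of 73449, and 5 libraries at 0 had higher totals than both.

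Averaged over libraries, the 5p arm made up 0.0300% ± 0.108 of both arms in trained and 0.0784% ± 0.272 in sedentary rats (SD, n = 13 and 12; permutation test, p = 0.742, adjusted p = 0.852). It had a count in 1 of 13 trained and 1 of 12 sedentary libraries (Fisher's exact test, p = 1). Over all libraries the share was 0.0562%, from 77 counts of miR-378a-5p and 136920 of miR-378a-3p. Among 111 hairpins with both arms listed and at least 100 counts, 77 had one arm at 0. In order of 5p percentage, miR-378a followed 34 hairpins tied at 0% and miR-127 at 0.0175%. Next above it were miR-143 at 0.307% and miR-27b at 0.848%.

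The comparison of trained with sedentary rats asked whether 4 weeks of running altered the level of miR-378 in mitochondrial RNA. Of the 4 rows, 3 had enough counts to be tested and 0 of these passed (quasi-likelihood test of edgeR, adjusted p under 0.05 by Benjamini-Hochberg), against 0 of all 76 rows tested (0%), with 1 row, 1.32%, at an unadjusted p under 0.05. DESeq2 also called 0, with 8 of the 260 rows it was given, 3.08%, at an unadjusted p under 0.05. Some of those 260, miR-378a-5p among them, got no estimate and no adjusted p from it. Limma-voom called 0, with 14 of 76, 18.4%, at an unadjusted p under 0.05. Without a filter on low counts edgeR called 66 of 260 rows, 25.4%, with 31.5% at an unadjusted p under 0.05, and 0 of the 4 miR-378 rows. The log2 fold change of miR-378a-3p was 0.02 (SE 0.30, 95% interval -0.58 to 0.63, edgeR p = 0.935, adjusted p = 0.999), and -0.14 when scaled by total counts alone. MiR-3557-5p had 0.02 (SE 0.30) and miR-378b 0.0099 (SE 0.30), with -0.14 and -0.15 under that scaling. These are not 3 independent results, since the rows hold nearly the same counts. In bulk RNA, fewer mitochondria of a cell type and less of the miRNA per mitochondrion cannot be told apart.

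**Figure D4:**
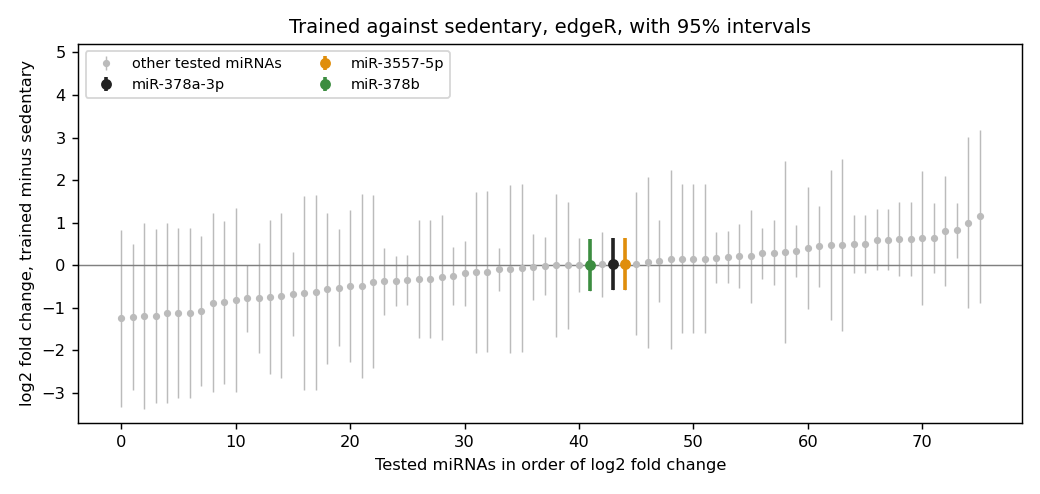
Log2 fold changes, trained minus sedentary, with 95% intervals (vertical axis) of the 76 miRNAs tested with edgeR, in order of value (horizontal axis). MiR-378a-3p, miR-3557-5p and miR-378b sit close to 0, with intervals from about -0.60 to 0.63.

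Shares of the library total were compared as well, which use no normalization factors. MiR-378a-3p averaged 6.47% ± 2.24 in trained and 7.13% ± 2.65 in sedentary rats (SD, n = 13 and 12). The difference of -0.658 percentage points did not pass the threshold (permutation test, p = 0.504, adjusted p = 0.852). It was -0.244 without trained library 27, and the medians differed by 0.0982 in the other direction. The share of miR-378a-5p was 0.00189% ± 0.00680 and 0.00367% ± 0.0127 in trained and sedentary rats (SD; p = 0.742 by permutation, adjusted p = 0.852). In the authors' normalized values, miR-378a-3p averaged 4324 ± 2066 in trained and 4077 ± 1793 in sedentary rats (SD).

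The spread of miR-378a-3p within each group was also compared. Libraries lay on average 0.43 from their group's median log2 CPM (counts scaled to one common library total) in trained and 0.47 in sedentary rats (permutation test, p = 0.852, adjusted p = 0.852). Relative to miR-1-3p, the most abundant muscle miRNA, miR-378a-3p had a log2 ratio of -0.94 ± 1.07 in trained and -0.35 ± 1.10 in sedentary rats (SD, n = 13 and 12). This ratio needs no scaling between libraries, and the difference of -0.59 did not pass the threshold (permutation test, p = 0.191, adjusted p = 0.667). MiR-378a-3p exceeded miR-1-3p in 3 of 13 trained and 4 of 12 sedentary libraries.

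The share of miR-378a-3p was also set beside the number in the library title, and a relation between them was not tested. In rats numbered 1 to 13 it ranged from 6.30% to 9.85% in 6 trained and from 6.51% to 10.9% in 6 sedentary libraries. In rats numbered 14 to 32 it ranged from 1.50% to 7.31% in 7 trained and from 3.06% to 8.45% in 6 sedentary libraries. Both groups were thus lower, on average, at the higher numbers, with means of 7.93% and 5.22% in trained and 8.96% and 5.30% in sedentary rats. The ranges at lower and higher numbers overlapped. The totals of the groups also differed with the numbers, at 26793 to 43510 counts in trained and 30527 to 186006 in sedentary rats numbered 1 to 13, and at 72553 to 202388 and 12181 to 106661 in those numbered 14 to 32. The labels give no meaning to the numbers, and the boundary had been chosen in earlier work on these data after the totals were seen.

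Within each range, trained and sedentary rats did not differ beyond the threshold. At numbers 1 to 13 the edgeR log2 fold change of miR-378a-3p was -0.22 (SE 0.21, p = 0.316, edgeR adjusted p = 0.996), and at 14 to 32 it was 0.44 (SE 0.44, p = 0.317, edgeR adjusted p = 0.803). Whether the 2 values differ was not tested. The difference in mean share was -1.03 percentage points at 1 to 13 (exact permutation test, p = 0.305, adjusted p = 0.693 over 5 measures) and -0.0785 at 14 to 32 (exact permutation test, p = 0.951, adjusted p = 0.951 over 7 measures). For the log2 ratio to miR-1-3p, the differences were -0.38 (exact permutation test, p = 0.286) and -0.67 (exact permutation test, p = 0.247). The log2 ratio of miR-378b to miR-378a-3p differed by -0.0050 at 1 to 13 (exact permutation test, p = 0.693) and by -0.045 at 14 to 32 (exact permutation test, p = 0.0944).

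**Figure D5:**
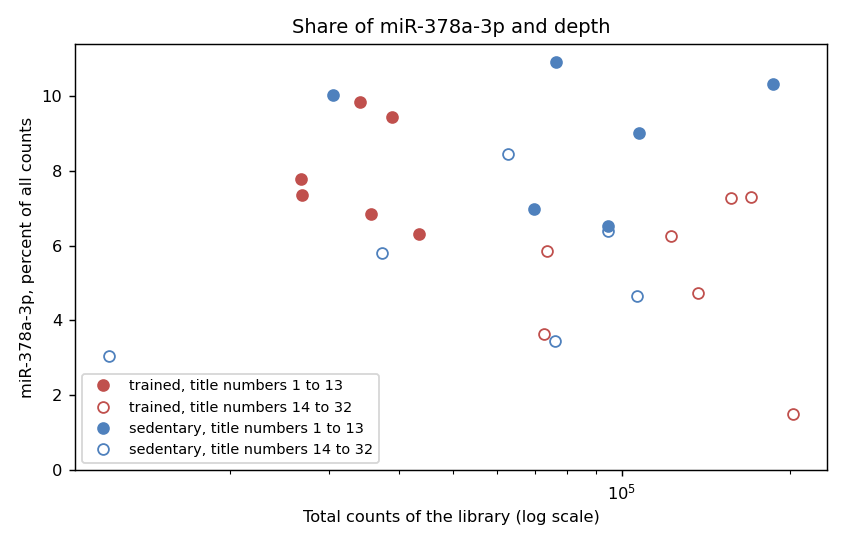
Share of miR-378a-3p in percent of all counts (vertical axis) against the total counts of the library (horizontal axis, log scale), by group and by title number (filled 1 to 13, open 14 to 32). Filled points lie between 6.30% and 10.9%, and open points between 1.50% and 8.45%.

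Depth itself was compared with 3 measures, giving 6 coefficients. The share of miR-378a-3p and the log2 total had Pearson r = -0.097 (permutation p = 0.644, adjusted p = 0.644) and Spearman rho = -0.14 (permutation p = 0.504, adjusted p = 0.605) over 25 libraries. Without sedentary library 7 and trained library 27, the 2 farthest from the median total, r was -0.052. Within title numbers 1 to 13 and 14 to 32, r was 0.23 and 0.15. Over the 13 trained libraries r was -0.58 (permutation p = 0.0339, adjusted p = 0.102) and rho was -0.62 (permutation p = 0.0267, adjusted p = 0.102), short of the threshold after adjustment. Over the 12 sedentary libraries r was 0.38 (permutation p = 0.228, adjusted p = 0.455) and rho 0.30, and the difference between the groups was not tested. The trained totals at numbers 1 to 13 and 14 to 32 did not overlap. Within those ranges, in values computed after the data were seen, the trained r was -0.052 (exact permutation p = 0.911, n = 6) and -0.044 (exact permutation p = 0.937, n = 7), and rho was -0.37 and 0.14 (adjusted p = 0.937 for each of these 4 coefficients, exact permutation). The ratio of miR-378b to miR-378a-3p fell short of the threshold after adjustment, with r = -0.48 (permutation p = 0.0136, adjusted p = 0.0816) and rho = -0.42 (permutation p = 0.0395, adjusted p = 0.119). Without the 2 libraries r was -0.40 (p = 0.0573 by permutation), and within the 2 ranges of title numbers it was -0.14 and -0.54. For the 5p percentage of the arms r was 0.19 and rho 0.24 (permutation p = 0.378 and 0.265, adjusted p = 0.567 and 0.531), and r was 0.26 without the 2 libraries. At numbers 1 to 13 every 5p value was 0, so no coefficient exists there, and at 14 to 32 r was 0.15.

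The miRNAs whose levels across the 25 libraries ranked most like those of miR-378a-3p, by Spearman's rho of log2(CPM + 1), were miR-152-3p (rho = 0.62), miR-181b-5p (0.55), miR-134-5p (0.54), miR-146a-5p (0.53) and miR-30c-2-3p (0.51). MiR-152-3p, closest by rank, had a Pearson r of 0.26, against 0.60 for miR-181b-5p. At the other end stood miR-126a-3p (rho = -0.62), an endothelial miRNA, and miR-1-3p (rho = -0.61). These coefficients are a description, since all the values of a library share its preparation and its total.

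Other miRNAs of related function were described by lists. The list of 21 miRNAs tied to oxidative metabolism or PGC-1 had 20 in the table, 11 with a count and 3 tested, of which 0 passed in either direction. Their median log2 fold change was 0.60, against -0.0080 over all 76 tested. MiR-199a-3p, clustered with miR-214, was at 0.81 (SE 0.64), miR-1-3p, described in muscle mitochondria of mice, at 0.60 (SE 0.36), and miR-133a-3p at 0.16 (SE 0.88). MiR-1-3p and miR-133a-3p are also among the muscle miRNAs below, so these lists are not independent. Under total counts alone the median of all tested miRNAs moved to -0.29, and the median of this list under that scaling is not given here. MiR-23a-3p, which acts on Ppargc1a, had a count in 6 libraries and was not tested.

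Of 10 miRNAs in introns of metabolic or muscle genes, like miR-378a in Ppargc1b, 5 had a count and 3 were tested, with 0 passing and a median of -0.15. They were miR-103-3p, in the pantothenate kinase genes, at -0.15 (SE 0.94), miR-107-3p, in Pank1, at -0.16 (SE 0.95), and miR-26a-5p, in phosphatase genes of the Ctdsp family, at 0.21 (SE 0.37). MiR-103-3p and miR-107-3p, with 3069 and 3045 counts in all, are close in sequence and total, and their values are reported as uncertain. The median of the 3 tested is the value of miR-103-3p, so that median rests on this pair. MiR-33-5p, in Srebf2, had 0 counts. The 9 muscle miRNAs had 7 with a count and 6 tested, 5 positive and 1 negative, with 0 passing and a median of 0.23. MiR-133a-3p and miR-133b-3p, with 3645 and 3632 counts, hold nearly the same counts, and with that pair counted once 4 values were positive and 1 negative, with a median of 0.30. Among the 5 brown adipocyte miRNAs 1 had a count and 0 were tested.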

How the data were processed

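Small RNA libraries of 13 trained and 12 sedentary rats were analysed. The authors deposited raw counts, whole numbers per mature miRNA (empty cells read as 0), and normalized values, a signal that is 1 factor per library times the raw count (largest relative deviation 1.59e-09). Tools in the submitters' processing notes are fastp 0.20.0 and DESeq2 1.36. Aligner, counter, strand setting, treatment of reads with several matches, build and miRNA annotation were not given in the sources used here. Per the labels' protocols, about 100 mg of muscle was used, mitochondria were incubated with 312 µg RNase A for 1 h at 37 °C, and libraries were made with adapters at 0.3 strength and 20 PCR cycles. Sequences are from RefSeq GRCr8 and matched 687 of 764 rows.

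Sampling noise was exceeded in all 144 within-group pairs of libraries, with a lowest ratio of chi-square to degrees of freedom of 17.7. Each library was 1 replicate. The labels give the number of rats but no litter or batch. P-values were computed with libraries as the units, so differences were judged against the spread between these samples.

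The main test was edgeR 4.0.16 (R 4.3.3), quasi-likelihood, TMM factors, no covariates, on 76 rows kept by filterByExpr (minimum count 10, minimum total 15, 96.9% to 99.0% of counts). MiR-378a-5p was not kept, so its fit without the filter carries no call. Composition measures used two-sided permutation tests of 100000 resamples (numpy 2.4.6), exact for subsets by title number, adjusted by Benjamini-Hochberg. Scripts were tested on simulated data. Alternatives were DESeq2 1.42.0, limma 3.58.1, other scalings, filters and library sets. Rows of 100 or more counts were counted once when they differed by 10% or less wherever the pair reached 10 counts, over 3 libraries or more. Named miRNAs were the 4 rows, level and arm neighbours, the 5 most alike by rank and list members. The rows, lists and tests were chosen with earlier results of these data known.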

Additional observations from a re-analysis of the deposited data

How the results depend on the processing

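No paired analysis was possible because the labels give no litter or batch by which to pair trained with sedentary rats, and no meaning to the title numbers. Calls stayed at 0 of the tested miRNAs in 13 of 14 other settings and without each library, and were 66 of 260 with no filter on low counts, where none of the 4 rows was among them (lowest adjusted p 0.824 for the 3 abundant rows). The values for miR-378a-3p, miR-378b and miR-3557-5p changed sign with total counts only (-0.14, -0.15 and -0.14) and at title numbers 1 to 13 (-0.22 for each). Without libraries under 0.25 of the median total, miR-378b was at -0.012. Without each library in turn they ran from -0.19 to 0.17, -0.21 to 0.15 and -0.19 to 0.17, lowest adjusted p 0.887. The fitted value for miR-378a-5p, -0.23 with no filter, rests on 2 libraries and is no bound. It was 2.72 with title number as a covariate and ran from -4.59 without trained library 14 to 4.33 without sedentary library 30, with a lowest adjusted p of 0.010 over the libraries left out, and DESeq2 and title numbers 1 to 13 gave no value.

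The difference in share of miR-378a-3p ran from -1.03 to -0.244 without a library and was 0.0982 for medians. For miR-378a-5p the medians did not differ (0 for the share and 0 for the arm percentage), and without a library the share difference ran from -0.00367 to 0.00189 and the arm difference from -0.0784 to 0.0300 percentage points, both ends set by the 2 libraries with a count. Log2 ratios without a library ran from -0.031 to -0.018 for miR-378b (0.0052 for medians), 0.00015 to 0.00093 for miR-3557-5p and -0.78 to -0.36 relative to miR-1-3p. The difference in spread ran from -0.19 to 0.021, was 0.021 without libraries under 0.25 of the median total and 0.081 at title numbers 14 to 32. Spearman's rho of share with depth, -0.14 over all libraries, was -0.62 in trained rats (adjusted p 0.102), 0.14 in those numbered 14 to 32, 0.30 in sedentary rats, 0.098 at numbers 1 to 13 and 0.12 at 14 to 32. No composition result passed its threshold in any setting, and the cause of these sign changes was not tested. The interval of -0.58 to 0.63 limits what this depth and spread can show for miR-378a-3p.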
